A study of Mus musculus with 2 samples.

Results

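The granzymes, perforin and the serpin B inhibitors that face them inside the cell were examined in memory T helper 2 (Th2) cells sorted by interleukin-5 production. The set was taken by gene symbol: every probe set whose platform annotation gives exactly 1 gene symbol, and that symbol is Gzma, Gzmb, Gzmk, Gzmm, Prf1, Serpinb9, Serpinb9b, Serpinb6a, Serpinb6b or Serpinb1a. This gave 13 probe sets for 10 genes, of 18193 genes named on the array. The genes were chosen by family and with the signals of these same 2 arrays known, so every value below is a description.

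The first group was IL-5+ memory Th2 cells and the second was IL-5- memory Th2 cells, with 1 array each. Both came from BALB/c CD4 T cells with the DO11.10 transgenic T cell receptor, a receptor for an ovalbumin peptide, which were kept for 6 days in Th2 culture (IL-4 at 100 U/ml, IL-2 at 25 U/ml, and the peptide). The cells were then given to BALB/c nu/nu mice, hosts without a thymus and with few T cells of their own, and memory cells were taken from the spleen 30 days later and split with a flow sorter. The labels give neither the ages of the mice, nor the number of hosts behind each RNA, nor how IL-5 was detected. The CD4 T cells were over 98% pure after magnetic selection. Both groups therefore came from cells with 1 transgenic receptor and the same IL-4 culture, and with 1 array a group no difference could be set against replicate error.

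Granzymes are serine proteases that cytotoxic lymphocytes store in secretory granules, and perforin is the pore-forming protein that lets them into the target cell. CD4 T cells can also make granzymes, granzyme B above all. Serpins of clade B are inhibitors that stay mostly inside the cell: a serpin offers a loop to a protease, is cut, and traps the protease in a covalent complex. In T cells they are known for shielding the cell from its own granule proteases.

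In these arrays the 5 serpin B members and the 4 granzyme members differed in opposite directions, although Gzmc, a further granzyme described below, was higher in IL-5+ cells like the serpins. All 5 serpin B genes had a signal at least 2-fold higher on the IL-5+ array, and 3 of the 4 granzymes (Gzma, Gzmk and Gzmm) had a signal at least 2-fold lower. Gzmb was lower by less than 2-fold, and Prf1 was higher by less than 2-fold. Over the 13133 genes with a signal above a floor on either array, the share at or past 2-fold in IL-5+ cells was 2.85% for higher and 4.01% for lower signals. The floor is the 40th percentile of all signals (36.3), and a signal under it was set to it, so that a gene above it on 1 array only has a bound. Gzmk and Serpinb1a have bounds, and the direction of a bound is fixed by which array passed the floor.

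The promoters of 9 of the 10 genes were available from RefSeq (build GRCm38.p6), each window running from 250 bases before to 50 bases after an annotated start. Those of Gzma, Gzmk and Gzmb are shown because Gzma and Gzmk were the granzymes furthest from 0 and Gzmb was bright on both arrays, and those of Serpinb9 and Serpinb9b because they are neighbouring paralogs with differences of unequal size. Capitals mark matches, on either strand, to 5 motifs: the T-box core AGGTGT, the Runx core TGTGGT, the GATA motif AGATAA, the STAT motif TTCNNNGAA and the AP-1 motif TGANTCA. None of the matches in the printed windows overlap.
Gzma, chr13:113100932-113101231, minus strand: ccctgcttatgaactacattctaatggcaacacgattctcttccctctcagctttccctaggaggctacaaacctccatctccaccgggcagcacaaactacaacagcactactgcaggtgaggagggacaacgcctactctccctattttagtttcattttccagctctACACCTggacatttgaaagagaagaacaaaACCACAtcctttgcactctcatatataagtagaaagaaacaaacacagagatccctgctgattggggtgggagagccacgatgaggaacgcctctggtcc
Gzmk, chr13:113180916-113181215, minus strand: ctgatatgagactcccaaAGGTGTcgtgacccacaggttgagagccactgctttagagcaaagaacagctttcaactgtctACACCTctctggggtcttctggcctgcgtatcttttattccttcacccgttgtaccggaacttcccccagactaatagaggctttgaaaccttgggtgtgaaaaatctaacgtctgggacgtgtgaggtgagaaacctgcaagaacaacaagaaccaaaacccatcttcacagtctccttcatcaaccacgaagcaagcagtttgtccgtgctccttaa
Gzmb, chr14:56262285-56262584, minus strand: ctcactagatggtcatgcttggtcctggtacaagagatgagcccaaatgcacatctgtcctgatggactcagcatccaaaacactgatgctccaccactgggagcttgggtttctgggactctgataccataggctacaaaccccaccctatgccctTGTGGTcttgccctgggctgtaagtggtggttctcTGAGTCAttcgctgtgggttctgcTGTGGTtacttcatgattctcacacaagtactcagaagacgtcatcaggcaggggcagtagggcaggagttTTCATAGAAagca
Serpinb9, chr13:33004291-33004590, plus strand: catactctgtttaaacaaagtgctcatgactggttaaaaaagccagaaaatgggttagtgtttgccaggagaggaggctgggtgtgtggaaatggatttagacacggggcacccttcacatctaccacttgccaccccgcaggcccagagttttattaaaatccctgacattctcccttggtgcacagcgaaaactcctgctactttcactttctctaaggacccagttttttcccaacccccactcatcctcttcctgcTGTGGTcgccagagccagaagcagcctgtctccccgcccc
Serpinb9b, chr13:33027164-33027463, plus strand: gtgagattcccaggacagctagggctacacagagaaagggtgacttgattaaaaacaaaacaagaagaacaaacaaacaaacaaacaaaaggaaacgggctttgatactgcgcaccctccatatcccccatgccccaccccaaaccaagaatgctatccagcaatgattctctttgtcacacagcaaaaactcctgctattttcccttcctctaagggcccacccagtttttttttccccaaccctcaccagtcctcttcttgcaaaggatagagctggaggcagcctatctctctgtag

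The T-box core was found in the windows of Gzma (1 match), Gzmk (2 matches) and Prf1 (1 match). It was not found in those of Gzmb, Gzmm or the 4 serpin B genes with a window. Of all 32851 promoter windows of this length, 13.7% held it. The Runx core, present in 16.8% of all windows, was found in Gzma, Gzmb (2 matches), Prf1, Serpinb9 and 1 of the 2 Gzmm windows. STAT matches (8.30% of all windows) were found in Gzmb, Serpinb6a and Gzmm, GATA matches (11.2%) in Gzmm alone, and an AP-1 match (7.81%) in Gzmb alone. The windows of Serpinb9b and Serpinb6b held none of the 5 motifs. After global alignment, Serpinb9 and Serpinb9b shared 198 of 300 positions (66.0%), whereas the other 35 pairs of members shared between 53.0% and 61.0%. A match is only a run of letters, and no binding was measured here.

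**Figure D1:**
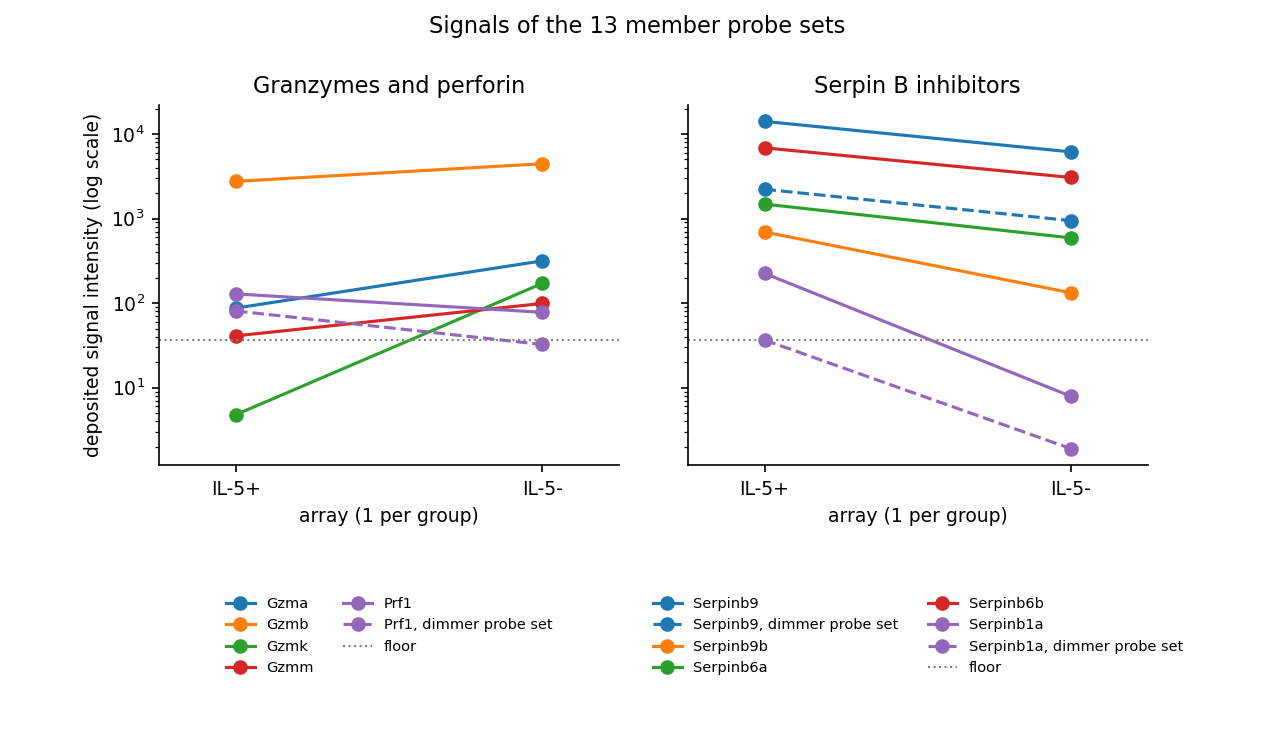
Deposited signal intensity (log scale) of the 13 member probe sets for IL-5+ cells (left) and IL-5- cells (right), with granzymes and perforin in the first panel and serpin B genes in the second; each line is 1 probe set and the dotted line is the floor of 36.3. Every serpin B line runs down towards IL-5-, every granzyme line runs up, and the perforin lines run down.

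The granzymes were read by 1 probe set each. Gzma, a protease that cuts after basic residues, had a signal of 87.4 in IL-5+ cells and 316.3 in IL-5- cells. This was 3.62-fold lower in IL-5+ cells (log2 ratio -1.86, IL-5+ over IL-5-). Bounds included, Gzma ranked 78th from the lowest of the 13133 ratios.

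Gzmk encodes granzyme K, a relative of granzyme A that also cuts after basic residues. Its signal was 4.8 in IL-5+ cells, below the floor, and 171.4 in IL-5- cells. In IL-5+ cells it was therefore at least 4.72-fold lower (log2 bound -2.24). The bound rests on the choice of floor, since raising the floor to 112.8, the 60th percentile, shrank it to -0.60, and with no floor the ratio was -5.16.

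Gzmm, which encodes a granzyme first described in natural killer (NK) cells, was dim on both arrays, at 41.0 in IL-5+ cells and 99.1 in IL-5- cells. The log2 ratio was -1.27, and it was -0.81 when a constant of 36.3 was added to both signals. Both signals lay under 112.8, so Gzmm had no ratio with the higher floor.

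Gzmb, which cuts after aspartate and activates caspases and Bid in target cells, was bright in both populations. Its signal was 2756 in IL-5+ cells and 4454.5 in IL-5- cells, 1.62-fold lower in IL-5+ cells (log2 ratio -0.69). Among the genes with a mean signal of 2000 or more, 2.41% had a ratio this low or lower. The SD of the log2 ratio between probe sets of 1 gene was 0.13 at this brightness, and it was 0.37 between 112.8 and 500 (Gzma) and 0.55 under 112.8 (Gzmk and Gzmm). That SD was taken over probe sets of a gene that lay in the same range of brightness and above the floor on both arrays. It does not include the variation between cell preparations.

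Perforin went the other way from the granzymes but stayed dim. The brighter Prf1 probe set had a signal of 128.5 in IL-5+ cells and 77.9 in IL-5- cells (log2 ratio 0.72). The second had 80.7 in IL-5+ cells and 32.4, under the floor, in IL-5- cells (log2 bound 1.15). Both probe sets were higher in IL-5+ cells, and since the second gives only a bound, how far they differ from each other is not known. With the floor at 112.8 the ratio of the brighter probe set was 0.19.

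The serpin B genes were higher in IL-5+ cells at all 7 of their probe sets. The 2 of Serpinb1a passed the floor in IL-5+ cells only, so their bounds could only be positive. Serpinb9, the mouse inhibitor of granzyme B, had a signal of 14121 in IL-5+ cells and 6147 in IL-5- cells, a log2 ratio of 1.20. Its second probe set gave 2221 in IL-5+ cells and 945.3 in IL-5- cells (log2 ratio 1.23). The 2 probe sets of Serpinb9 thus differed by less than the smallest SD between probe sets (0.13). That SD was taken within 1 range of brightness, whereas these 2 probe sets lie in different ranges. Among the genes with a mean signal of 2000 or more, 0.91% had a ratio as high or higher.

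Serpinb6b, an inhibitor of granzyme A in the mouse, had a signal of 6862 in IL-5+ cells and 3063 in IL-5- cells. This was 2.24-fold higher in IL-5+ cells (log2 ratio 1.16). Serpinb6a, whose human counterpart inhibits cathepsin G, had a signal of 1483 in IL-5+ cells and 590.7 in IL-5- cells, 2.51-fold higher (log2 ratio 1.33). The log2 ratios of Serpinb9, Serpinb6a and Serpinb6b thus ran only from 1.16 to 1.33, with signals far above the floor on both arrays.

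Serpinb9b, a close paralog of Serpinb9, showed a larger difference at a lower signal. It had 693.8 in IL-5+ cells and 132.6 in IL-5- cells, 5.23-fold higher in IL-5+ cells (log2 ratio 2.39). It ranked 18th from the highest of all ratios and bounds. Probe sequences were not used here, so how far transcripts of Serpinb9 and its paralogs bind each other's probes was not tested.

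Serpinb1a encodes an inhibitor of the neutrophil proteases elastase, cathepsin G and proteinase 3. Its brighter probe set had a signal of 225 in IL-5+ cells and 7.90 in IL-5- cells, under the floor. It was at least 6.20-fold higher in IL-5+ cells (log2 bound 2.63). The second probe set, whose suffix marks possible matches to several transcripts, had 36.6 in IL-5+ cells and 1.90 in IL-5- cells, so that its bound of 0.012 carries no size. With the floor at 112.8 the bound of the brighter probe set was 0.996.

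**Figure D2:**
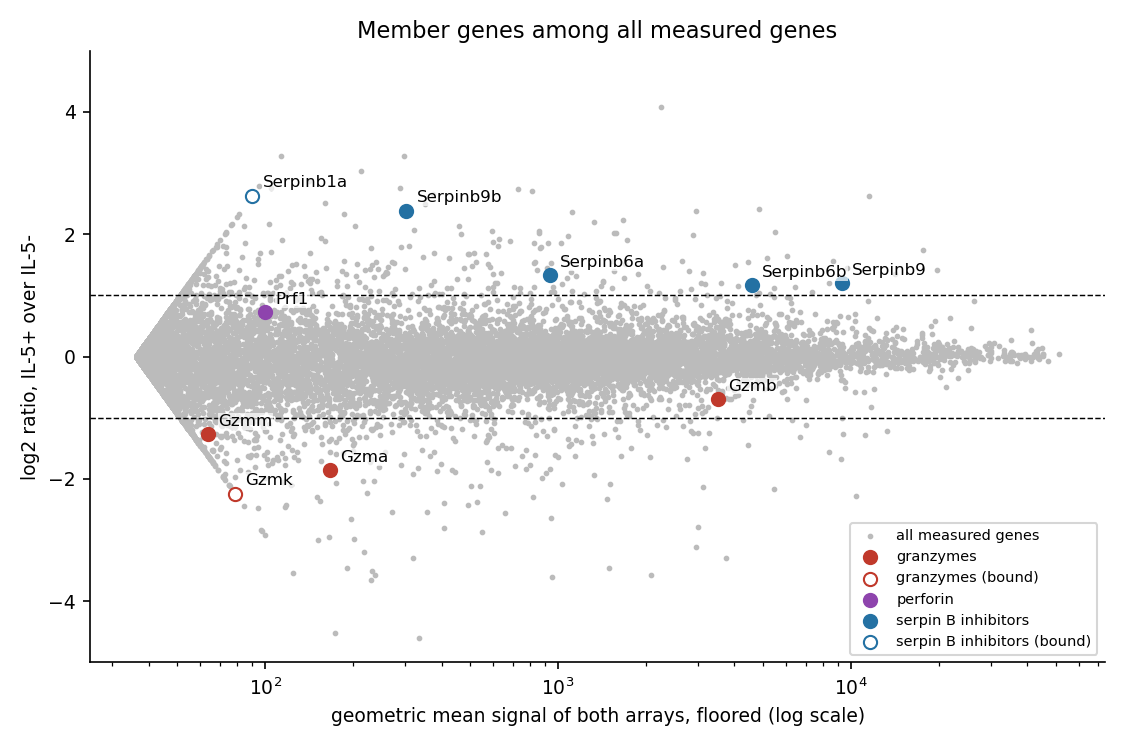
Log2 ratio (IL-5+ over IL-5-) of the 13133 measured genes against the geometric mean of the 2 floored signals (log scale); members are coloured, open circles are bounds, dashed lines mark 2-fold and 1 gene, Il5, lies above the axis. Serpinb9, Serpinb6b and Serpinb6a stand at the upper edge of the cloud at bright signals, and Gzmb stands at its lower edge. Gzmk, Gzmm, Prf1 and Serpinb1a lie among dim genes where the cloud is wide.

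Because each array has its own scale, ratios of single genes move with the scaling, but where both genes are above the floor on both arrays, the difference between the ratio of a granzyme and that of a serpin does not move when an array is multiplied by a constant. For all 20 pairs of a granzyme member and a serpin B member, Gzmc left out, this difference was negative, as the directions above require. For Gzmb and its inhibitor Serpinb9 it was -1.89, which means that the signal of Serpinb9 relative to that of Gzmb was 3.71-fold higher in IL-5+ cells. For Gzma and its inhibitor Serpinb6b it was -3.02, or 8.11-fold. Over the 12 pairs in which both genes were above the floor on both arrays, it ran from -1.86 (Gzmb and Serpinb6b) to -4.24 (Gzma and Serpinb9b). The pairs share genes and arrays and are not independent, and signals are not amounts of protein.

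The members lie in few places in the genome. In the gene order of RefSeq, all 5 serpin B members belong to 1 cluster of 16 serpin B genes on chromosome 13. Of these 16, 7 passed the floor on at least 1 array, 4 were under it on both, and 5, without a named probe set, were not analysed here. The 5 members were the ones at least 2-fold higher, and the other measured genes of the cluster were Serpinb1b (45.4 in IL-5+ cells and 2.50 in IL-5- cells) and Serpinb6e (172.8 in IL-5+ cells and 134.3 in IL-5- cells, log2 ratio 0.36). Serpinb6b, Serpinb9 and Serpinb9b follow each other directly. Serpinb6a stands at the far end, past Serpinb6e and Serpinb6c (15 in IL-5+ cells and 8.60 in IL-5- cells). Outside the cluster, Wrnip1 next to Serpinb1a had signals of 2114 in IL-5+ cells and 2207 in IL-5- cells, and Nqo2 next to Serpinb6a had 53.6 in IL-5+ cells and 3.90 in IL-5- cells, a bound of 0.56.

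Gzma and Gzmk are direct neighbours, also on chromosome 13. The next gene after Gzmk, Esm1, which encodes a secreted proteoglycan known from endothelial cells, had 26.0 in IL-5+ cells and 273.1 in IL-5- cells, a log2 bound of -2.91. On the Gzma side, Gpx8 and Cdc20b were under the floor on both arrays. Esm1 was chosen for its position, and a joint difference of neighbours does not say that they share a control.

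Gzmb heads a cluster of 7 granzyme genes on chromosome 14, and its direct neighbour Gzmc, a granzyme of activated cytotoxic cells, differed in the opposite direction. Gzmc had a signal of 255.3 in IL-5+ cells and 78.6 in IL-5- cells, 3.25-fold higher in IL-5+ cells (log2 ratio 1.70, and 1.18 with the floor at 112.8). The other 5 genes of the cluster (Gzmd, Gzme, Gzmf, Gzmg and Gzmn) were under the floor on both arrays, with signals from 0.200 to 18.4. Gzmm and Prf1, both on chromosome 10, stand apart from other granzymes. The 4 genes around Gzmm all passed the floor on at least 1 array. Tpgs1 (-0.29), Cdc34 (0.035) and Bsg (0.24) stayed under 2-fold, and Hcn2 (39.2 in IL-5+ cells and 29.3, under the floor, in IL-5- cells) has only a bound of 0.11.

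**Figure D3:**
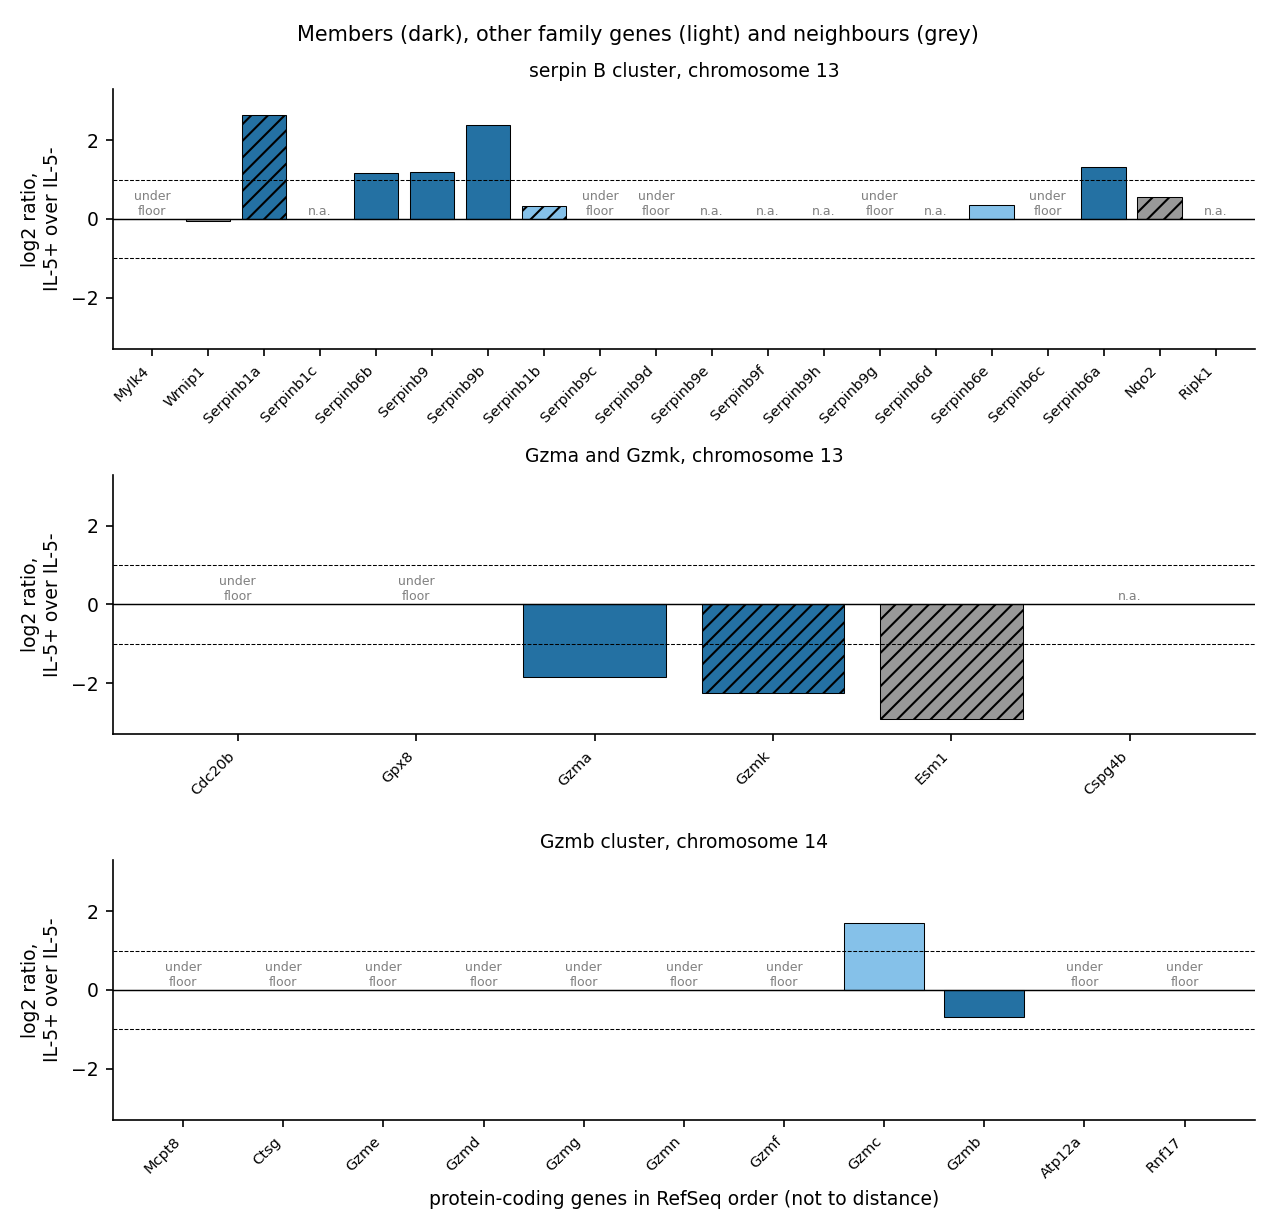
Log2 ratios (IL-5+ over IL-5-) of protein-coding genes in RefSeq order along the serpin B cluster, the Gzma and Gzmk pair and the Gzmb cluster; hatched bars are bounds, dashed lines mark 2-fold, and n.a. marks genes with no named probe set. Serpin B bars point up, Gzma, Gzmk and their neighbour Esm1 point down, and Gzmc and Gzmb point in opposite directions.

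The remaining serpin B genes added little signal. Of 22 further serpin B genes listed, 13 had a named probe set and 4 passed the floor on at least 1 array, namely Serpinb1b, Serpinb5, Serpinb6e and Serpinb8. None reached 2-fold. Their median log2 ratio was 0.31, which cannot be set against the -0.048 over all measured genes. For Serpinb1b, Serpinb5 and Serpinb8 the value is a bound set by an IL-5+ signal between 43.2 and 45.4. Their IL-5- signals were under the floor, so these bounds could only be positive and the median shows no family direction. Serpinb6e, measured on both arrays, had a log2 ratio of 0.36. The wider serpin B family outside the members was thus mostly not measurable at these signals.

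Genes that fill and carry the granules showed no common direction. Of 14 measured genes for granule proteases, matrix and membrane, none was at least 2-fold higher and 1 was lower, with a median of -0.044. That gene was Ctsw (cathepsin W, a cysteine protease of cytotoxic lymphocytes), at 216.8 in IL-5+ cells and 501 in IL-5- cells (log2 ratio -1.21). Over all measured genes, 2.85% were at least 2-fold higher and 4.01% lower. The counts for this and the following lists are to be read beside these shares. Ctsc, the protease that activates granzymes by removing a dipeptide, had 4500 in IL-5+ cells and 3657 in IL-5- cells (0.30), and Srgn, the proteoglycan that packs them, had 34016 in IL-5+ cells and 30226 in IL-5- cells (0.17). Both are named for their roles after their values were seen. Lamp2 had 0.74 at its brightest probe set, with the others from -0.068 to 0.40. Nkg7, a granule membrane protein of cytotoxic cells, stood at -0.59 and Ctsl at -0.38.

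Of 15 measured genes for granule transport and release, 2 passed 2-fold upward and none downward, with a median of -0.051. Those were Sytl1 (121.1 in IL-5+ cells and 35.6 in IL-5- cells, log2 bound 1.74) and Sytl2 (169.4 in IL-5+ cells and 82.1 in IL-5- cells, log2 ratio 1.04), which encode partners of the vesicle GTPase Rab27a. Both were dim, and with the floor at 112.8 their ratios were 0.10 and 0.59. Stx11, a fusion protein needed for lymphocyte degranulation, was at 0.77 and Rab27a at -0.54. Kif5b, named for its unlike probe sets after its values were seen, had 0.29 at the brightest, with the others from -0.16 to 1.13.

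Among 11 genes known to regulate cytotoxic programmes, 2 were higher and 2 lower in IL-5+ cells by 2-fold or more, with a median of -0.33. The T-box factor genes Tbx21 and Eomes, known activators of Gzmb and Prf1, had log2 ratios of -1.497 and -1.199. Zeb2, a repressor that acts with T-bet in effector T cells, had 2629 in IL-5+ cells and 892.6 in IL-5- cells (1.56), and its 5 probe sets ranged from 1.40 to 1.82. Id2, an inhibitor of E proteins, had 12739 in IL-5+ cells and 5519 in IL-5- cells (1.21), with its other probe sets at 1.31 and 0.45. Runx3 had 1065 in IL-5+ cells and 1392 in IL-5- cells (-0.39). Regulators of the cytotoxic programme therefore differed in both directions between the populations.

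Other protease inhibitors of leukocytes showed no common direction. Of 7 measured genes, 3 were above 0 and 4 below, with a median of -0.080. None was at least 2-fold higher and 1 was lower. Beside 2.85% higher and 4.01% lower over all measured genes, such counts say nothing particular about 7 genes. The lower gene was Slpi, a secreted elastase inhibitor, with 31.9 in IL-5+ cells, under the floor, and 78.7 in IL-5- cells. Its log2 bound of -1.12 could only be negative. Cst7 (cystatin F, which inhibits cathepsin C in granules) had 661.4 in IL-5+ cells and 1320 in IL-5- cells, a log2 ratio of -0.997 and so just short of 2-fold. Serpini1 and Serpinh1 stood at -0.51 and a bound of 0.41. Of 13 measured granzyme substrates in target cells, none reached 2-fold (median -0.13), and the widest ratios were those of Bid (-0.66), Prkdc (-0.44), Numa1 (-0.41) and Lmnb1 (-0.24).

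**Figure D4:**
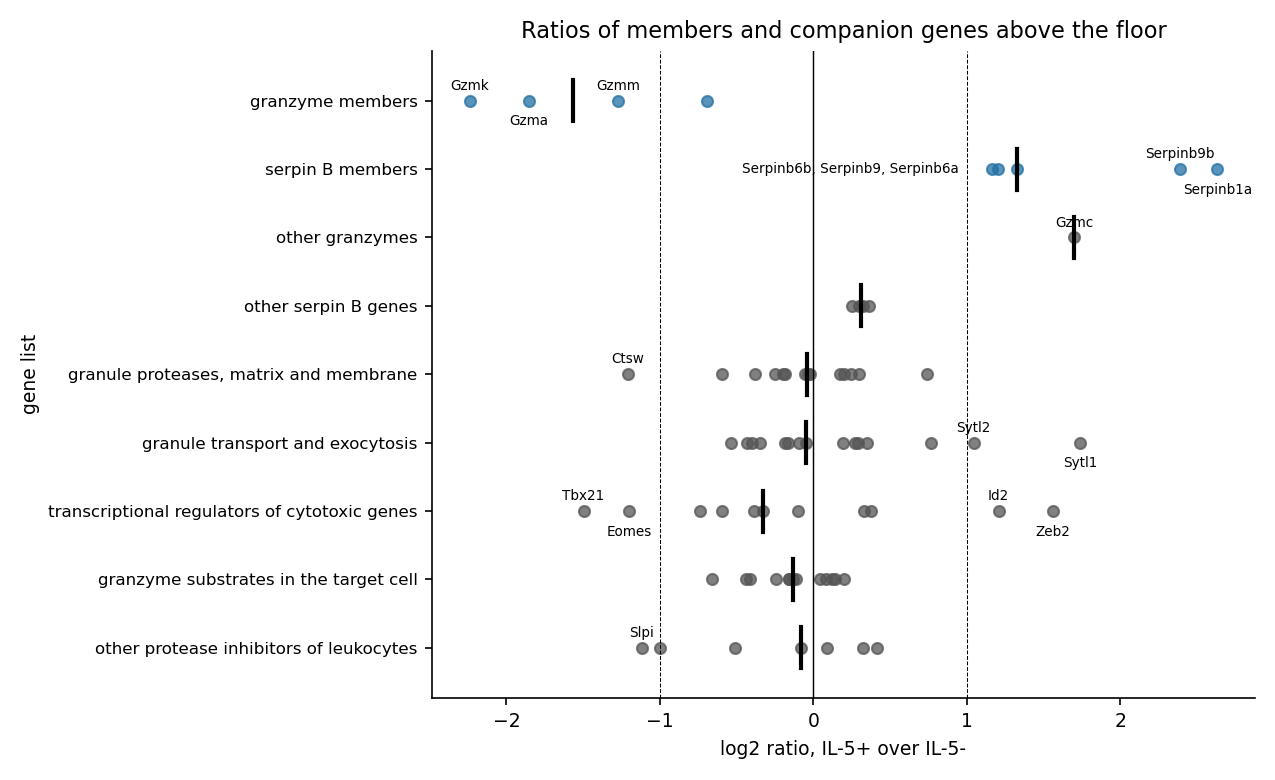
Log2 ratios (IL-5+ over IL-5-) of members and of 7 companion lists, 1 point per gene above the floor on 1 or both arrays, with the list's median as a bar and 2-fold as dashed lines. Serpin B members lie right of the 2-fold line and granzyme members lie left of zero. The 4 other serpin B genes lie just right of zero, a side fixed in advance for the bounds of Serpinb1b, Serpinb5 and Serpinb8. The points of 5 companion lists spread to both sides of zero.

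The sort marker Il5 had a signal of 37085 in IL-5+ cells and 67.4 in IL-5- cells. The median over all probe sets was 57.2 in IL-5+ cells and 60.4 in IL-5- cells. Of 8 CD4 T cell markers measured, none reached 2-fold, and 7 were lower in IL-5+ cells (median log2 ratio -0.25, summed signals 46350 in IL-5+ cells and 57938 in IL-5- cells). Cd247 (-0.81) and Cd3g (-0.71), named after their values were seen, were as far down as Gzmb. Cd4 itself had 454.5 in IL-5+ cells and 471 in IL-5- cells, and the brightest were Cd3d (9116 in IL-5+ cells and 13553 in IL-5- cells) and Cd28 (9051 in IL-5+ cells and 10151 in IL-5- cells).

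Granzymes and perforin are also made by NK and CD8 T cells, and elastase, proteinase 3 and cathepsin G, the proteases that Serpinb1a inhibits, by neutrophils. Of 7 NK markers with a named probe set, 4 passed the floor on at least 1 array, and the summed signals of all 7 were 858 in IL-5+ cells and 470.7 in IL-5- cells. None of the 4 reached 2-fold, but Fcer1g (61.4 in IL-5+ cells and 4.70 in IL-5- cells) and Cd244a (60.2 in IL-5+ cells and 30.8 in IL-5- cells) were under the floor in IL-5- cells, so their log2 values of 0.76 and 0.73 are bounds; both are named after their values were seen. Ncr1, which defines NK cells, was under the floor on both arrays (18.3 in IL-5+ cells and 21.1 in IL-5- cells), whereas Klrk1 had 519.4 in IL-5+ cells and 297.1 in IL-5- cells, and Klrd1 had 145.1 in IL-5+ cells and 91.7 in IL-5- cells. Klrk1 and Klrd1, above the floor on both arrays, were higher in IL-5+ cells, like Prf1 and Gzmc and unlike the 4 granzyme members. Fcer1g and Cd244a counted as measured only because of their IL-5+ signals. Their bounds could therefore only be positive and say nothing about a shared direction. The brightest of 5 Cd8a probe sets had 66.9 in IL-5+ cells and 76.7 in IL-5- cells. Another passed the floor in IL-5- cells only (7.7 in IL-5+ cells and 47.6 in IL-5- cells). A further Cd8a probe set passed it in IL-5+ cells only (40.7 in IL-5+ cells and 11.4 in IL-5- cells). The remaining Cd8a probe sets were under the floor on both arrays, so Cd8a showed no common direction. Cd8b1 had 280.2 in IL-5+ cells and 168.4 in IL-5- cells. Of 10 neutrophil markers, 8 were under the floor on both arrays, among them Prtn3 (4.8 in IL-5+ cells and 8.10 in IL-5- cells) and Ctsg (10.1 in IL-5+ cells and 12.9 in IL-5- cells). Elane had 62.2 in IL-5+ cells and 48.1 in IL-5- cells, and Ngp had 33.7 in IL-5+ cells and 45.5 in IL-5- cells. Of 13 mast cell and basophil markers, 8 were under the floor on both arrays, including Mcpt8 (4.90 in IL-5+ cells and 1.70 in IL-5- cells), and Hdc alone reached 2-fold, at 352.8 in IL-5+ cells and 10.4 in IL-5- cells, while Kit had 122.7 in IL-5+ cells and 106.3 in IL-5- cells. The brightest B cell markers by mean log2 signal were Ms4a1 (60.7 in IL-5+ cells and 62.1 in IL-5- cells) and Cd22 (38.6 in IL-5+ cells and 21.9, under the floor, in IL-5- cells). Pax5, named after its values were seen, had 6.40, under the floor, in IL-5+ cells and 70.2 in IL-5- cells. The brightest monocyte and macrophage markers were Csf1r (105.6 in IL-5+ cells and 124.5 in IL-5- cells) and Cd68 (109.1 in IL-5+ cells and 75.8 in IL-5- cells). The part of other cell types in the member signals was not tested. In RNA from sorted bulk cells, fewer cells with a transcript and less of it per cell cannot be told apart.

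**Figure D5:**
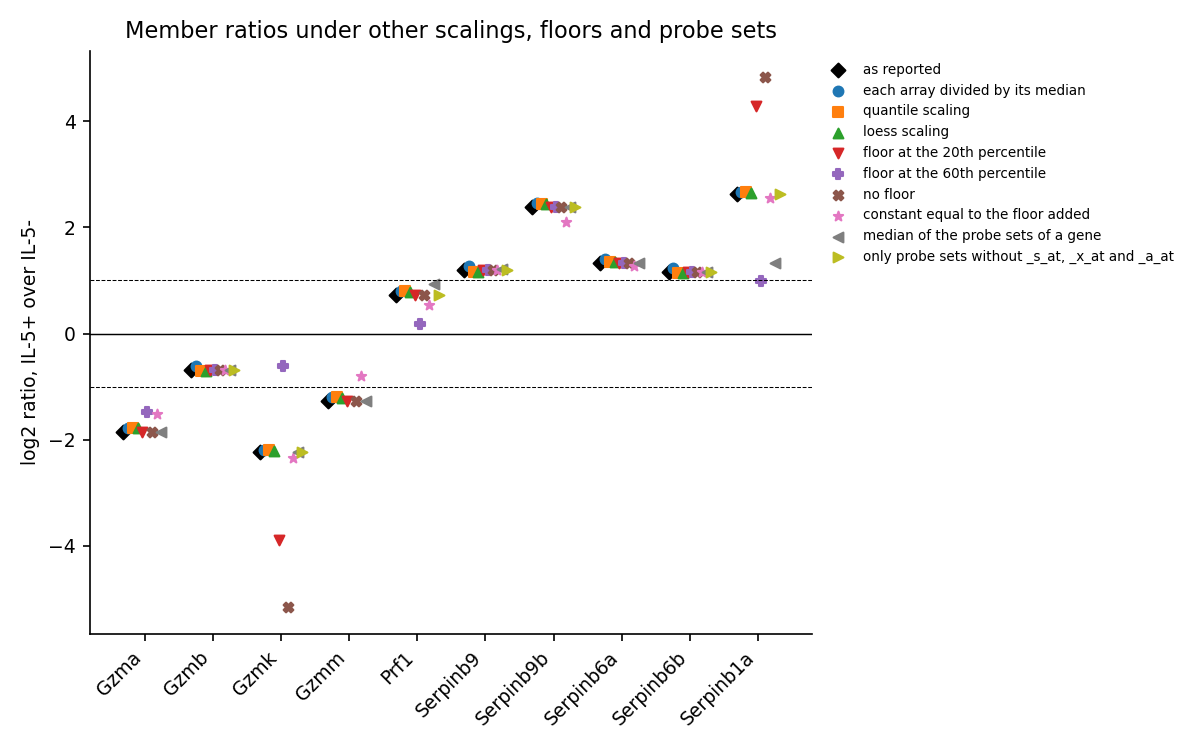
Log2 ratio (IL-5+ over IL-5-) of each member as reported and under 9 other scalings, floors and choices of probe set, where a value could be computed; dashed lines mark 2-fold. No member changed sign, although a change of floor or an added constant could not reverse a sign. The ratios of Serpinb9, Serpinb6a and Serpinb6b stayed between 1.14 and 1.41, and those of Gzmk and Serpinb1a moved most.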

How the data were processed

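Total RNA of the IL-5+ and the IL-5- sort was labelled with biotin and hybridised to Affymetrix arrays, 1 per group. The authors deposited a linear signal intensity for each probe set, computed by Affymetrix's GCOS software according to the submitters' processing notes. The algorithm and target of its scaling are not stated in what was used here. These deposited intensity values run from 0.1 to 51950 with no detection calls, and their means without the lowest and highest 2% were 496 (IL-5+) and 497 (IL-5-), so a ratio is set by what the other transcripts did and hides any difference in total RNA.

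Of 45037 probe sets, 34945 had 1 gene symbol, 932 had several and 9160 were unnamed. For a gene with several probe sets, the 1 brightest by mean log2 signal was used. Signals under the 40th percentile (36.3) were set to it, and 5060 genes under it on both arrays had no ratio. Ratios of dim genes scatter more: the SD of the log2 ratio between probe sets of 1 gene was 0.55 under 112.8 and 0.13 at 2000 and over. Whether background made ratios of dim genes too small or too large was not tested. Called means at least 2-fold. With 1 array a group there was no test, no p-value and no replicate error, and having 2 arrays limits the precision. The members and lists were chosen with earlier results of these data known. All members were named; from each companion list up to 4 genes with the largest ratios were named, plus Runx3, Eomes and Tbx21 whatever their values, and from marker lists the 2 brightest and defining markers. Protein sequences were not used here, so a planned comparison of protease and inhibitor motifs was not made. Promoter windows are from RefSeq, GRCm38.p6, and 9 of 10 members matched. On simulated arrays of 18193 genes with the probe set spread, 100 genes were changed by 1.5 (log2) and 100 by 3. Of these, 92.0% and 100% were called with the correct sign. This spread holds no variation between cell preparations, so the shares do not give the reliability of a call from 1 array a group. The share of unchanged genes that were called is not given. Alternatives were loess, quantile and array median scaling, no floor, a floor at the 20th or at the 60th percentile, a constant added to signals, 2 choices of probe set, and thresholds of 1.5-fold and 3-fold. Tools were statsmodels 0.14.6, scipy 1.17.1, pandas 2.3.3, numpy 2.4.6 and Python 3.11.15.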

Additional observations from a re-analysis of the deposited data

How the results depend on the processing

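Across 9 other scalings, floors and choices of probe set, every member that could be computed kept its direction. A change of floor or an added constant cannot reverse a ratio, so only the scalings and choices of probe set could have done so. For Gzmk and Serpinb1a, the direction of a bound is fixed by which array passed the floor. Serpinb9, Serpinb9b, Serpinb6a and Serpinb6b stayed at least 2-fold higher in all of the 9, although Serpinb6a has no value without suffixed probe sets. Gzma stayed at least 2-fold lower in the 8 that gave a value. The counts of 5 member genes higher and 3 lower became 4 and 1 when the floor was the 60th percentile, which took Serpinb1a, Gzmk and Gzmm under 2-fold or out, and 4 and 1 when suffixed probe sets (_s_at, _x_at, _a_at) were dropped, which left 7 members. Adding a constant left 2 lower. At 3-fold there were 2 higher and 2 lower. Of all 13133 measured genes, 374 were higher (2.85%) and 526 lower (4.01%), and the number measured changed with the floor. With the 20th percentile as floor the counts were 1325 (7.98%) and 1572 (9.47%) of 16594 genes. With the 60th they were 183 (2.01%) and 226 (2.48%) of 9097. No floor gave 2057 (11.3%) and 2311 (12.7%) of 18193. Of the 13133 genes, 1035 (7.88%) and 1560 (11.9%) passed 1.5-fold, and 91 (0.69%) and 143 (1.09%) passed 3-fold. Over the companion lists, the count of 5 higher genes became 9 with the floor at the 20th percentile, 3 at the 60th, 12 with no floor, 2 without suffixed probe sets and 2 at 3-fold. The count of 4 lower genes became 9 with no floor, 9 at 1.5-fold and 0 at 3-fold. These counts are not shares, since the number of companion genes with a ratio also depends on the floor. Of 262 other values recomputed, 247 moved by no more than the SD between probe sets at the gene's brightness (0.37 for list medians) and 15 by more, and no called value changed sign. Many of the 247 could not move. A floor below both signals of a gene leaves its ratio unchanged, as does a choice of probe set for a gene with 1 probe set. No paired analysis was possible because each group has 1 array.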
